A study of Oryza sativa with 10 samples.

Results

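PPDKB (LOC4338750) is a rice gene for pyruvate phosphate dikinase, and its transcript level is described here in 5 tissues. It was taken from the array's annotation by its gene identifier and is 1 of 16420 genes with a tested probe set. Of the 57381 probe sets of the array, 1 was assigned to PPDKB, and it was among the 30014 tested. The suffix of that probe set is the manufacturer's mark for probes shared by alternative transcripts of 1 gene, so the signal is not specific to 1 transcript. Whether the probes cover every transcript of the gene was not tested.

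Pyruvate phosphate dikinase turns pyruvate, ATP and phosphate into phosphoenolpyruvate, AMP and pyrophosphate, and the reaction can run in both directions. In leaves of plants that concentrate carbon dioxide by the C4 route the enzyme supplies phosphoenolpyruvate for the first fixation step, whereas rice fixes carbon without that cycle. In the rice grain the gene is known because mutants that lack the enzyme have a floury, opaque endosperm. The enzyme is found in the plastid and in the cytosol, and rice PPDKB can give transcripts for both forms, which this probe set does not separate.

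The plants were of the japonica cultivar Zhonghua 11, grown in a phytotron, and all tissues came from plants described with no other genotype or treatment. Embryo and endosperm were dissected from seeds at 6 days after anthesis, leaf and root came from seedlings aged 7 days, and whole seedlings were taken at 10 days. The 10 arrays, 2 biological replicates of each tissue, limit the precision by their number. Replicates were at least 2-fold apart for 26.2% of tested probe sets in endosperm and 25.0% in root. That share was 7.3% in embryo, 5.8% in seedling and 3.4% in leaf. Signals are MAS5 intensities on a linear scale, brought by the authors to the same trimmed mean of 500 on every array. Differences are on the scale of log2(signal + 16), from 1 limma model over all 10 arrays, and are given with their standard error. The model pools the spread of all tissues, so every PPDKB difference has the same standard error. In a fit with array weights it was 0.39 for endosperm minus root and 0.16 for seedling minus leaf. A difference was called at an adjusted p under 0.05 (Benjamini-Hochberg over all 30014 tested probe sets) and at least 2-fold.

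The endosperm, embryo and root marker lists each had their highest sums in the tissue they are named for, while the green tissue and maternal lists were also present elsewhere. The summed signal of 4 endosperm markers (Wx, GLUA-1, GluC and RA17) was 143785 to 185033 in endosperm, 24909.9 to 30711 in embryo and at most 147 in leaf, root and seedling. The 3 embryo markers (OSH1, MFT2 and VP1) summed to 30299 to 38051 in embryo and at most 1546 elsewhere. That highest value was on root 1, where MFT2 read 1062, against 6.61 on root 2. The 3 root markers (Lsi1, Lsi2 and Nrat1) summed to 27571 to 27979.5 in root, 5260.5 to 11677 in seedling and at most 1021 elsewhere. The 2 genes of maternal seed tissue, FST and Os8N3, summed to 28962 and 23591 in endosperm, 1317 to 1678 in embryo, and 2136 and 2360 in leaf. Most of the endosperm sum was Os8N3 (27475.5 and 22516), with FST at 1486 and 1075. Of the 4 green tissue markers (OsrcaA1, CAB2R, LFNR1 and GLN2) the sum was 61343 to 70690.3 in leaf but uneven in endosperm, with 3780.4 on endosperm 1 and 25959.9 on endosperm 2, and in root, with 18843 on root 1 and 6277 on root 2. Most of that unevenness was in CAB2R (3028 and 24306 in endosperm, 15512 and 3976 in root). OsrcaA1 (193 and 562), GLN2 (106 and 500) and LFNR1 (454 and 592) were also higher on endosperm 2 than on endosperm 1. LFNR1 (712 and 250) and GLN2 (1344 and 564) were also higher on root 1 than on root 2, whereas OsrcaA1 was not (1275 and 1487). The root arrays also differed in the Gapdh 3′ to 5′ ratio, a measure of RNA and labelling quality (2.04 and 24.0, against 1.65 to 29.1 over the other arrays). A second Gapdh pair went the other way in root (6.21 and 0.577) and read 0.358 and 5.09 in endosperm. In leaf the ratios were 26.3 and 29.1 for the first pair and 23.3 and 18.4 for the second. Endosperm 1 stood apart in the ratio of the added thr transcript (945, against at most 8.85). Leaving out each of the endosperm and root arrays in turn, or endosperm 1 and root 2 together, gave the same PPDKB calls, with endosperm minus embryo at 1.12 without endosperm 1 and 1.53 without endosperm 2, and seedling minus root at 0.72 without root 1 and 0.07 without root 2.

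PPDKB was highest in endosperm. Its signal was 55771 on endosperm 1 and 41849 on endosperm 2 (48809.8 ± 9844, SD, n = 2). In embryo it was 21833 and 17018.5 (19426 ± 3405). In the whole seedling it was 8821 and 6430.2 (7625 ± 1690.3). These 3 tissues did not overlap, each lying wholly below the one before. In root the signal was 7150.2 and 4559 (5855 ± 1832), and the higher root array lay between the 2 seedling arrays. In leaf it was 1021 and 954 (987 ± 47.7), below every other array of the series and with the smallest spread between replicates. The tissues differed in limma's F-test (F = 119, adjusted p = 1.41e-06), as they did for 73.2% of all tested probe sets. In bulk tissue, fewer cells that hold a transcript and less of it per cell cannot be told apart. The part of maternal seed tissue RNA in the endosperm signal of PPDKB was not tested.

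**Figure D1:**
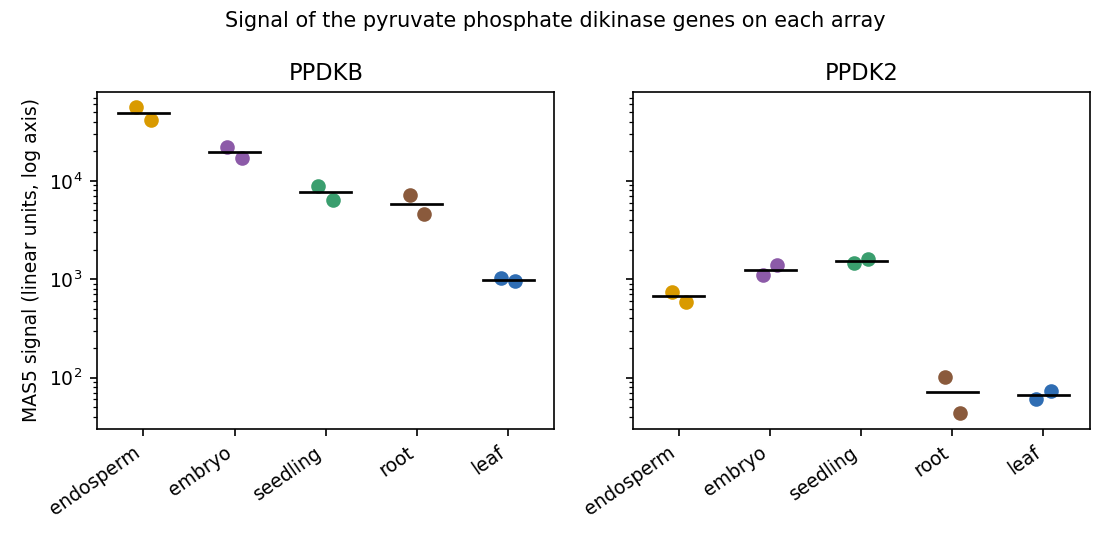
MAS5 signal (linear units on a log axis) of PPDKB (left) and of the other rice gene of this enzyme, PPDK2 (right), in 5 tissues; each point is 1 array and each line the mean of 2. PPDKB falls from 48809.8 in endosperm to 987 in leaf, while PPDK2 is highest in seedling and lowest in root and leaf.

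Endosperm stood above each of the 4 other tissues. It exceeded embryo by 1.32 ± 0.27 on the log2 scale (2.505-fold, 95% interval 1.65 to 3.81, adjusted p = 0.00339), where 16.3% of tested probe sets were called higher in endosperm and 14.7% had a difference at least as large as that of PPDKB. Against leaf the difference was 5.59 ± 0.27 (48.2-fold, 31.7 to 73.2, adjusted p = 3.62e-07). Here 21.8% of probe sets were called higher in endosperm, but only 1.09% reached the PPDKB difference. Against root it was 3.08 ± 0.27 (8.44-fold, 5.56 to 12.8, adjusted p = 1.31e-05), with 17.6% called higher and 3.47% as far apart. Against the whole seedling it was 2.68 ± 0.27 (6.40-fold, 4.21 to 9.73, adjusted p = 2.91e-05), with 19.8% called higher and 4.95% as far apart. The sizes of all 4 differences depended on the scaling between arrays, which the 95% intervals do not cover. With quantile and spike-in scaling, endosperm minus leaf was 5.04 and 4.49, minus root 2.28 and 2.01, and minus seedling 1.63 and 1.61. These differences kept their calls, whereas the call against embryo did not hold under every scaling. Endosperm minus embryo was 0.80 (adjusted p = 0.032) with quantile scaling, under 2-fold, 1.03 (0.0605) with scaling to the median, and 0.36 (0.553) with spike-in scaling. Spike-in scaling equalises the control probe sets for bioB, bioC, bioD and cre, and it moved the median of all tested probe sets from 0.02 to -0.83.

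Embryo, the other part of the seed, was second in the order and above all 3 vegetative samples. It exceeded leaf by 4.27 ± 0.27 (19.2-fold, adjusted p = 2.52e-06), where 18.3% of probe sets were called higher in embryo and 1.65% differed as much. It exceeded root by 1.75 ± 0.27 (3.37-fold, adjusted p = 0.000627), with 15.4% called higher and 8.71% as far apart. It exceeded seedling by 1.35 ± 0.27 (2.56-fold, adjusted p = 0.00249), with 17.7% called higher and 14.8% as far apart. With quantile scaling this last difference was 0.83 (adjusted p = 0.0254), under 2-fold. The 4 endosperm markers summed to 24909.9 to 30711 on the embryo arrays, and the part of endosperm RNA in the embryo signal of PPDKB was not tested.

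Among the vegetative samples, PPDKB was lowest in leaf. Root exceeded leaf, the difference of leaf minus root being -2.51 ± 0.27 (5.71-fold, adjusted p = 0.000257), with 8.87% of probe sets called lower in leaf and 3.01% as far apart. The seedling, which includes leaves and roots, exceeded leaf by 2.91 ± 0.27 (7.53-fold, adjusted p = 0.000737). That comparison held few calls, 1.97% of probe sets being higher in seedling, and 0.866% differed as much as PPDKB. Seedling and root did not differ beyond their spread (0.40 ± 0.27, 95% interval -0.20 to 1.002 on the log2 scale, adjusted p = 0.339), in a comparison where 19.0% of probe sets were called in either direction. The summed endosperm markers were as low in seedling (107 and 141) as in leaf (124 and 147). Whether remaining grain tissue added to the seedling signal of PPDKB was not tested. Seedlings were taken at 10 days and leaf and root at 7 days, so age and kind of sample cannot be told apart. The order endosperm, embryo, seedling, root, leaf therefore had a called difference at every step except between seedling and root.

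**Figure D2:**
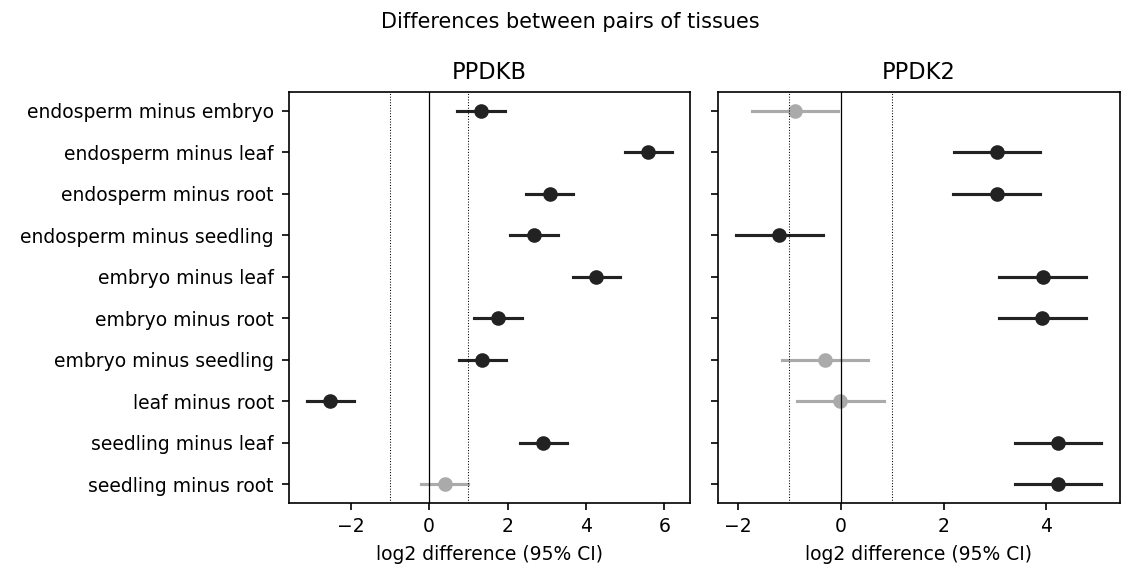
Log2 differences between each pair of tissues with 95% intervals for PPDKB (left) and PPDK2 (right); black marks a called difference, grey one that was not called, and dotted lines 2-fold. For PPDKB 9 of the 10 differences were called, all but seedling minus root.

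PPDK2 (LOC4333181), the other gene on the array named for this enzyme, had a different order of tissues. Its probe set carries the manufacturer's mark for probes that can also bind other transcripts, so its values are less certain. PPDK2 was highest in the whole seedling, at 1458 and 1619 (1539 ± 114). It was 1106 and 1396 in embryo (1251 ± 205) and 747 and 592 in endosperm (669.6 ± 109.8). In root it read 100.5 and 43.3 and in leaf 60.7 and 73.4, so both organs of the younger seedlings were low and overlapped. Seedling exceeded leaf by 4.23 ± 0.38 (adjusted p = 0.000648) and root by 4.22 ± 0.38 (adjusted p = 0.000144), and embryo exceeded leaf by 3.93 ± 0.38 (adjusted p = 3.02e-05). Endosperm was above leaf (3.04 ± 0.38, adjusted p = 9.86e-05) and root (3.04 ± 0.38, adjusted p = 0.000119). With PPDK2 in leaf and root not shown to be above background, the sizes of these differences depend on the added constant: seedling minus leaf was 3.61 with 64 added and 4.53 with a floor of 32.

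Where PPDKB stood higher in endosperm than in embryo, PPDK2 was not called (-0.89 ± 0.38, adjusted p = 0.0879), and both endosperm arrays lay below both embryo arrays. PPDK2 was called lower there with spike-in scaling (-1.82, adjusted p = 0.0202) and without endosperm 1 and root 2 (-1.05, adjusted p = 0.00979). Where PPDKB stood higher in endosperm than in seedling, PPDK2 was called lower (-1.19 ± 0.38, adjusted p = 0.0217), a direction in which 31.5% of tested probe sets were called. That PPDK2 call ended without endosperm 2 (-1.03, adjusted p = 0.0768), without seedling 1 (-1.26, 0.0749), without seedling 2 (-1.11, 0.112) and with quantile scaling (-0.76, 0.101). Seedling and embryo were not separated for PPDK2 (-0.30 ± 0.38 for embryo minus seedling, adjusted p = 0.537). Whether the 2 genes differ in their tissue differences was not tested, and signals of different probe sets were not set against each other.

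The 12 tested genes around the PPDK reaction, chosen by symbol, held none called higher in endosperm than in embryo, the difference in which PPDKB was called. Of the 12, 0 were called higher in endosperm and 6 were called lower, against 16.3% of all tested probe sets higher and 20.1% lower. With 12 genes, the 0 called higher is not read as a departure from that 16.3%. The median log2 difference of the 12 was -0.97, and that of all tested probe sets 0.02. Against leaf 4 were called higher and 4 lower, where 21.8% of all probe sets were higher and 30.9% lower. Against root 2 were higher and 5 lower (17.6% and 26.4% of all). Against seedling 3 were higher and 4 lower (19.8% and 31.5% of all), so the share of lower calls was near that of all probe sets.

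PDRP1, the regulatory protein that switches PPDK off and on by adding and removing a phosphate, was lowest where PPDKB was highest. It read 94.0 and 118 in endosperm (106 ± 17.3) against 1353 and 1117 in embryo (1235 ± 166). The difference of -3.36 ± 0.32 (adjusted p = 3.99e-05) was called, as were those against leaf (-3.71 ± 0.32, adjusted p = 9.43e-06), root (-3.19 ± 0.32, adjusted p = 2.67e-05) and seedling (-2.65 ± 0.32, adjusted p = 7.84e-05). In leaf it stood at 1649.7 and 1504, in root at 1325 and 902, and in seedling at 633 and 884, so endosperm lay below all other arrays. Its endosperm signals were not shown to be above background, so the sizes of these differences are uncertain. Over the alternative fits described below, endosperm minus embryo for PDRP1 ran from -4.18 to -2.93 and kept its call.

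Of the 3 tested carriers that exchange phosphoenolpyruvate for phosphate across the plastid membrane, PPT1 and PPT2 were lower in endosperm than in embryo and PPT3 was not called. PPT2 read 401 and 555 in endosperm against 7073 and 5556 in embryo (-3.69 ± 0.26, adjusted p = 1.05e-05), and it was also lower than in leaf (-3.60 ± 0.26, adjusted p = 3.74e-06). PPT1 read 2586 and 1912 in endosperm against 23381 and 17402.5 in embryo (-3.17 ± 0.26, adjusted p = 2.13e-05), while its difference from leaf (-0.85 ± 0.26, adjusted p = 0.0181) was under 2-fold. For PPT1 both embryo arrays lay above every other array, whereas for PPT2 the embryo arrays overlapped those of leaf (5769 and 6067). PPT3, added to complete the class after its values were seen, read 746 and 211 in endosperm against 69.5 and 1089 in embryo (0.44 ± 0.99, adjusted p = 0.764), with wide and overlapping replicates.

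Of the enzymes that make or use pyruvate, OsPK1, a cytosolic pyruvate kinase, which makes pyruvate from phosphoenolpyruvate, was lower in endosperm (3498 and 2272) than in embryo (9043 and 8707), by -1.65 ± 0.31 (adjusted p = 0.0023). ME6, an NADP-malic enzyme, which releases pyruvate from malate, was lower as well (2394 and 2233 against 11160.2 and 9365; -2.14 ± 0.21, adjusted p = 4.8e-05). The other tested members of these families, OsPK2 and NADP-ME2, were added after their values were seen and were not called between the seed parts. OsPK2 read 4743 and 3459 in endosperm against 3676 and 3699 in embryo (0.13 ± 0.27, adjusted p = 0.73), and it was higher in endosperm than in leaf (2.74 ± 0.27, adjusted p = 2.21e-05). NADP-ME2 read 202 and 1059.8 against 937 and 847 (-0.90 ± 0.55, adjusted p = 0.222). ME6 also shared with PPDKB a higher level in seedling than in leaf (1.69 ± 0.21, adjusted p = 0.00258). The adenylate kinases, which recycle the AMP that PPDK forms, were not called between the seed parts. ADK-A was 14877 and 15128 in endosperm against 8114 and 8775 in embryo, a difference of 0.83 ± 0.21 (adjusted p = 0.0112) that is under 2-fold. It stood higher in endosperm than in leaf (3.07 ± 0.21, adjusted p = 2.98e-06), root (1.21 ± 0.21, adjusted p = 0.00107) and seedling (3.004 ± 0.21, adjusted p = 3.5e-06). ADK-B was 8356 and 8319 against 9828 and 10089.9 (-0.26 ± 0.23, adjusted p = 0.401). With spike-in scaling the ADK-A difference between the seed parts turned to -0.14 (adjusted p = 0.753), and ADK-B was called lower in endosperm (-1.22, adjusted p = 0.0042).

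**Figure D3:**
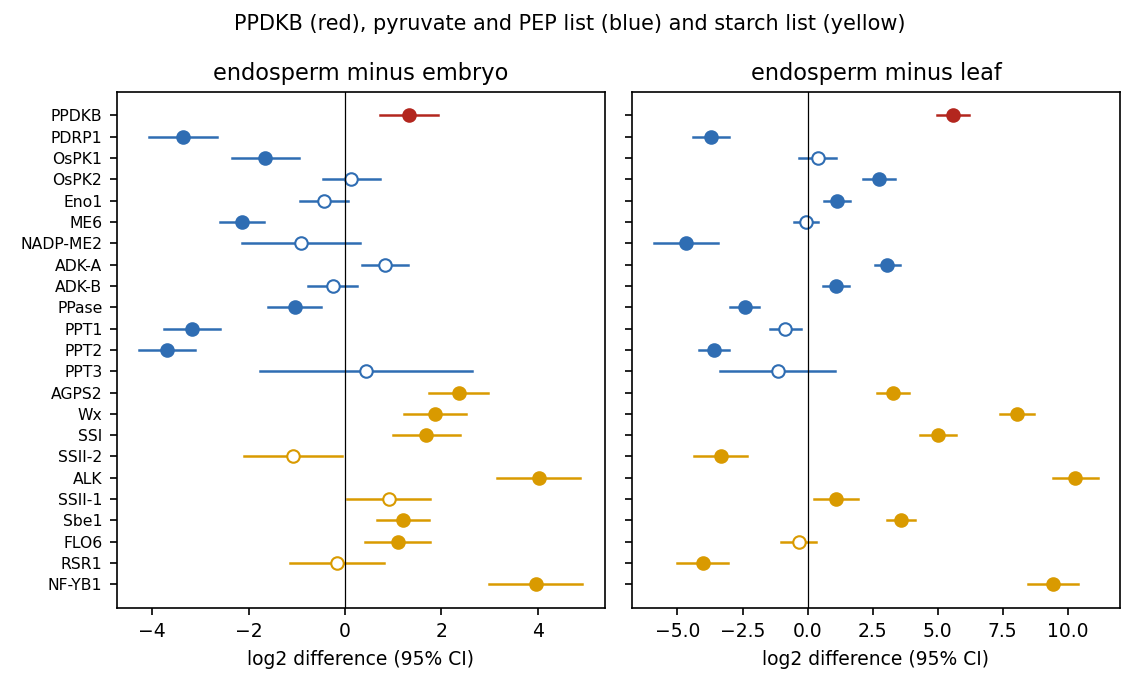
Log2 differences with 95% intervals of PPDKB (red), the 12 genes around the PPDK reaction (blue) and the 10 genes listed for starch synthesis or floury endosperm (yellow), for endosperm minus embryo (left) and endosperm minus leaf (right, with its own axis range); filled points were called. On the left no blue point is called above 0 and 6 are called below, while 7 of the 10 yellow points are called above. Of all tested probe sets, 16.3% were called higher and 20.1% lower in that comparison.

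Genes listed for starch synthesis or floury endosperm were mostly higher in endosperm. Of 10 tested (ISA1 of the same list had no probe set), 7 were called higher in endosperm than in embryo and 0 lower, against 16.3% and 20.1% of all tested probe sets, with a median log2 difference of 1.45. Against leaf 7 were higher and 2 lower (21.8% and 30.9% of all), and against root also 7 and 2 (17.6% and 26.4% of all). Against seedling 6 were higher and 2 lower (19.8% and 31.5% of all). With spike-in scaling 4 of the 10 were called between endosperm and embryo. The list was chosen with its pattern in these data known, and Wx is also among the endosperm markers.

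ALK, the soluble starch synthase SSIIa, read 31628 and 25617 in endosperm against 2030.2 and 1494 in embryo (4.02 ± 0.39, adjusted p = 4.62e-05). NF-YB1, a subunit of an endosperm transcription factor, read 12642 and 15926 against 916 and 877 (3.96 ± 0.43, adjusted p = 9.16e-05). AGPS2, a subunit of the enzyme that makes ADP-glucose, read 42561 and 29199 against 6601 and 7079 (2.36 ± 0.28, adjusted p = 0.000133). Wx, the granule-bound starch synthase, read 33847 and 33952 against 9519.9 and 9035 by the probe set with the highest mean log2 signal over all arrays (1.87 ± 0.29, adjusted p = 0.000641); that set can bind other transcripts, and another Wx probe set read 47719.8 on average in endosperm against 3295 in embryo. SSI, a soluble starch synthase, read 24785 and 17097 against 6856 and 5912 (1.69 ± 0.31, adjusted p = 0.0019). Wx and SSI were not called with spike-in scaling (0.90, adjusted p = 0.0665, and 0.73, adjusted p = 0.0766).

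Outside the seed some genes of the starch list read far below their own endosperm values. In seedling ALK read 4.52 and 8.52, NF-YB1 3.94 and 29.5 and Wx 88.4 and 138. AGPS2 was higher in leaf than in root (2.97 ± 0.28, adjusted p = 0.000131), the opposite of PPDKB. SSII-1, another soluble starch synthase, was not called between the seed parts (3010.1 and 1462 against 1325 and 934; 0.91 ± 0.38, adjusted p = 0.0867). RSR1, a factor that lowers expression of starch genes, was not called between them either (63.4 and 209 against 164 and 109; -0.17 ± 0.44, adjusted p = 0.797), and it was lower in endosperm than in leaf (-4.02 ± 0.44, adjusted p = 4.34e-05), where it read 2220.0 and 2096. The SSII-1 difference was called without endosperm 2 (1.42, adjusted p = 0.014) and turned to -0.050 with spike-in scaling, and the RSR1 difference turned to 0.58 without endosperm 1.

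The transcripts most like PPDKB were searched among 2315 other tested genes with a readable symbol, by Pearson's r of log2(signal + 16) over the 10 arrays, which come in 5 pairs of replicates. The 10 highest values ran from 0.922 to 0.964, given as a description with no test. The highest was of Os-RSZ21a, named as a splicing factor of the SR family (r = 0.964), with 8756 and 7995 in endosperm, 3608 and 4355 in embryo, 2638 and 2033 in seedling, 1719.7 and 1627 in root, and 1019.6 and 1009.9 in leaf. Its probe set, like that of PPDK2, can also bind other transcripts. Next came OsUBC5b, a ubiquitin-conjugating enzyme (0.940), RPL30, a ribosomal protein gene (0.935), DOHH-B (0.932), TubA, an alpha-tubulin (0.931), a gene named only bHLH (0.931), CUTA1 (0.927), HSP16.9A, a small heat shock protein (0.926), HMG1 (0.926) and L-CDes1 (0.922).

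These genes differed among themselves in the size of the differences. Between endosperm and leaf PPDKB differed by 5.59 on the log2 scale, Os-RSZ21a by 3.02, RPL30 by 1.55 and TubA by 0.89. HSP16.9A exceeded PPDKB here, with 6.87, but between endosperm and embryo it differed by -0.17, where PPDKB differed by 1.32. The 2 lists held none of the 10. On the starch list the nearest member was NF-YB1 (r = 0.859, rank 61), and the nearest enzyme was ALK (0.843, rank 80). The nearest gene around the PPDK reaction was OsPK2 (0.833, rank 101), and PPDK2 was at 0.674 (rank 299).

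**Figure D4:**
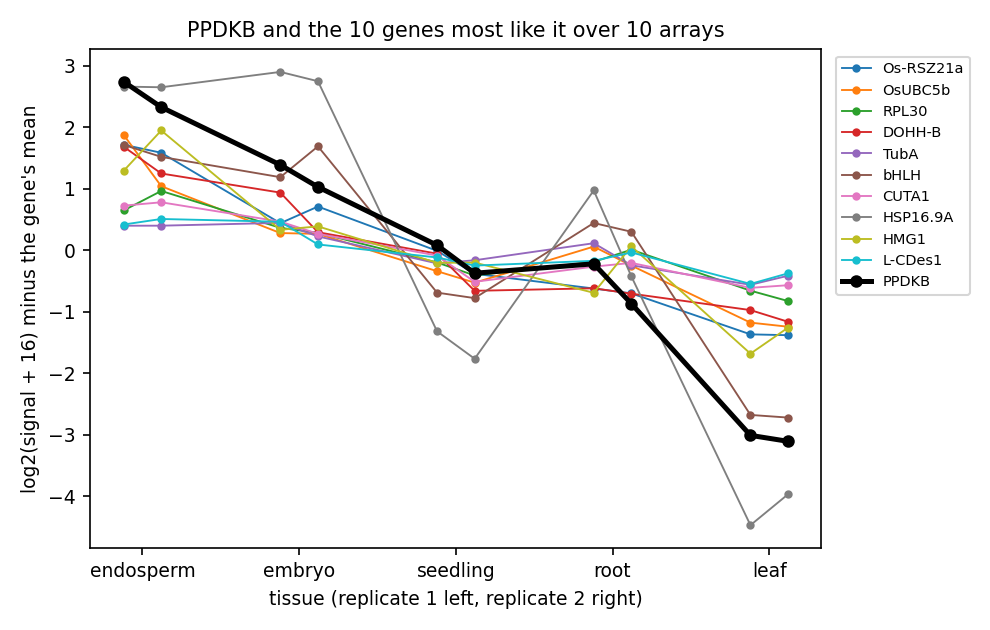
Log2(signal + 16) of PPDKB (thick black) and the 10 genes with the highest correlation to it, each with its own mean over the 10 arrays subtracted; tissues are in the order of the PPDKB levels, with replicate 1 left and replicate 2 right. PPDKB spans more than most of the 10, and HSP16.9A, the grey line, spans more than PPDKB.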

How the data were processed

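Transcript levels were measured with an Affymetrix rice genome array in 5 tissues. The deposited values are MAS5 signal intensities on a linear scale (version not given in the sources used here), per the submitters' processing notes; every array had a 2% to 98% trimmed mean of 500. Detection calls and scanner files were not used. Arrays were scaled to that trimmed mean, and log2 was taken after adding 16. Probe sets with a signal of at least 100 on at least 2 arrays were tested (30014; 123 controls left out). One limma model (limma 3.58.1, R 4.3.3) with a mean per tissue was moderated with eBayes and a trend on intensity (5 residual degrees of freedom, 5.14 from the prior), and p was adjusted within each of the 10 pairs of tissues.

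Genes came from the platform annotation and a rice gene table (ASM3414082v1): 22436 probe sets had 1 gene, 95 several and 34850 none. Neither table holds protein names, so list members were matched by symbol, 12 around the PPDK reaction and 11 of starch synthesis or floury endosperm, with the probe set of highest mean log2 signal per gene. Other enzymes planned for the lists, such as phosphoenolpyruvate carboxylase, matched no symbol and were not analysed here. Named from each list were the up to 5 largest called differences in each direction between endosperm and embryo and the 2 members without a call nearest PPDKB in mean signal. The gene and the lists were chosen with earlier results of these data known. The procedure was tested on simulated data. Over all tested probe sets, arrays of different tissues with the same replicate number did not deviate together (r of deviations -0.108 to 0.0962), so they were not paired. PPDKB itself read higher on replicate 1 than on replicate 2 in each tissue, and a fit with a replicate block is given below.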

Additional observations from a re-analysis of the deposited data

How the results depend on the processing

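The fit was repeated with an added 1 or 64 or a floor of 32 in place of 16, with quantile, median or spike-in scaling, unscaled deposited signals, a filter at 200 or none, array weights, a fit without the trend, an adjusted p under 0.01, no fold minimum, fits of just the compared pair, a replicate block and each array left out. Leaving out endosperm 1 and root 2 together was added after seeing the data. PPDKB has 1 probe set, so no other could be tried. Many alternatives left a PPDKB estimate unchanged and acted at most on p or the calling rule. These were the filters, weights, trend, thresholds, replicate block, pair fits, deposited signals and leaving out an array of a tissue not compared. Its order of tissues was the same wherever all 5 tissues were fitted, and 7 of its 9 called differences kept their call in all 26 alternatives, of which 2 could not end a call (the deposited signals already had that trimmed mean, and dropping the fold minimum loosens the rule). The other two were under 2-fold or missed the threshold under some scalings: endosperm minus embryo was 0.80 with quantile, 1.03 with median and 0.36 with spike-in scaling (adjusted p from 0.000884 to 0.553 over its alternatives), and embryo minus seedling was 0.83 with quantile scaling. Relative to the median of all tested probe sets, endosperm minus embryo was 1.303 as given and 0.765, 1.28 and 1.19 under those 3 scalings. With each array left out, endosperm minus embryo ran from 1.12 to 1.53 and seedling minus root, never called, from 0.07 to 0.72. The replicate block gave endosperm minus embryo an adjusted p of 0.000884 and changed no PPDKB call. The starch list had 4 calls between endosperm and embryo with spike-in scaling. Some uncalled differences changed sign. PPDK2 in leaf minus root was 0.014 with an added 1, 0.017 with the floor, 0.19 with quantile scaling, 0.25 with median scaling, and it ran from -0.49 to 0.48 with each array left out (0.48 without root 1). With spike-in scaling endosperm minus embryo, 0.83 for ADK-A and 0.91 for SSII-1 as given, was -0.14 for ADK-A and -0.050 for SSII-1. For RSR1 it ran from -0.92 to 0.58 with each array left out and was 0.58 without endosperm 1 and root 2. The cause was not tested. Of the 10 genes most like PPDKB, at least 4 stayed among the 10 in each alternative, the fewest without endosperm 2. Without detection calls, signals near or under 100, such as PPDK2 in leaf and root, have no order.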
